A study of Danio rerio with 18 samples.

Results

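GFP-positive cells sorted from zebrafish embryos of the hand2 background were compared with GFP-positive cells sorted from wild-type embryos, both at 72 hpf (hours post fertilization). Each group has 2 libraries, so the comparison rests on 4 of the 18 libraries of the series, chosen by their labels. The other 8 GFP-positive libraries, from the gata5 and tbx5 backgrounds at 72 hpf and from wild type at 24 and 48 hpf, served to estimate the spread between replicates. Embryos of both groups were raised at the same temperature and staged by morphology, per the labels. The labels give the gene of the genetic background but neither the allele nor its lesion, and they name neither the reporter that drives GFP nor the number of embryos in a library. Replicates 1 and 2 are not said to come from separate pools of embryos, so every p-value here measures the spread between libraries, which may be technical.

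Hand2 is a basic helix-loop-helix transcription factor. In zebrafish it is needed for the growth of the myocardium and for the pectoral fins and the pharyngeal arches, and embryos without it have few cardiomyocytes that fail to form a proper heart tube. It works in the heart beside the Gata4, Gata5 and Gata6 zinc-finger factors and the T-box factors Tbx5 and Tbx20, and loss of Hand2 has been linked in zebrafish to an excess of fibronectin around the heart precursors. The comparison asks which transcripts of the sorted cells differ in the hand2 background. Gene symbols are written as the reference table of gene IDs gives them, some in upper case.

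The hand2 libraries held 27680568 and 24654136 counts, and the wild-type libraries held 23617376 and 32141901 counts. Levels are given as CPM, the counts of a gene scaled to the size of its library after TMM scaling. Gene levels of the replicates correlated with r = 0.907 in hand2 and r = 0.743 in wild type on the log2 scale, across genes, which are not independent replicates. The other 4 groups of GFP-positive libraries lay between 0.812 and 0.889. At an equal depth of 12070094 counts, 23302 and 22251 genes would have had a count in the hand2 libraries, against 18819 and 18106 genes in the wild-type libraries. The hand2 libraries had the highest such numbers of the 12 GFP-positive libraries. Of the genes tested, 694 (2.92%) had no count in either hand2 library and 3051 (12.8%) had no count in either wild-type library. A level of at least 10 CPM in replicate 1 or 2 with 0 counts in the other was found for 0 genes in hand2 and for 311 genes in wild type. Low genes were therefore missing more often from the wild-type libraries, and folds of low genes are given as bounds or beside the other genotypes of 72 hpf. Such a bound covers counting error only. It does not cover zeros of the kind seen in these 311 genes, so a fold given as "at least" may be smaller.

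The sample labels call the material sorted embryo cells, and the design text of the series speaks of cardiac muscle cells. The 7 cardiomyocyte markers, carried by 8 gene IDs, summed to 1997 and 636 CPM in hand2, against 961 and 391 CPM in wild type. None of them was at 0 in both libraries of a group. The 6 markers of xanthophores, the yellow pigment cells, summed to 15330 and 19094 CPM in hand2, against 14342 and 8065 CPM in wild type. The named protein-coding gene gch2, which encodes the GTP cyclohydrolase of pteridine pigment synthesis, alone had 8892 and 11178 CPM in hand2, against 8407 and 4641 CPM in wild type. Markers of both cell types were thus present in all 4 libraries. CPM does not correct for gene length, so the sums of the marker sets are not compared with each other. In such bulk RNA, fewer cells of a type and less RNA per cell cannot be told apart.

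HAND2 itself (ENSDARG00000008305) was nearly absent from the hand2 libraries. It had 2.32 CPM (61 counts) in replicate 1 and 0 CPM (0 counts) in replicate 2 of hand2, against 42.6 CPM (1016 counts) and 41.4 CPM (1472 counts) in wild type. Summed over both libraries of a group, the wild-type level was 33.6 times the hand2 level, with a 95% counting interval of 26.1 to 44.1. The libraries of the gata5 and tbx5 backgrounds held 17.4 to 20.3 CPM. HAND2 did not pass the edgeR quasi-likelihood test (log2 fold change −5.15 ± 1.15 SE, adjusted p = 0.212, n = 2 against 2). With hand2 replicate 1 left out its adjusted p was 9.3e-07, and with hand2 replicate 2 left out it was 0.0013 at a log2 fold change of −4.18. The 4 libraries did not overlap, and the difference between the hand2 replicates, 61 counts against none, was wide on the log scale.

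Besides HAND2, 3 genes within 2 places of it were at or close to 0 in hand2. The 8 named protein-coding genes on either side were read from the RefSeq gene order of assembly GRCz12tu, where hand2 lies on chromosome 1. This set was chosen after values of the nearest neighbours had been seen, and 15 of the 16 genes were matched to a gene ID. The next gene after hand2 is fbxo8, which encodes an F-box protein of ubiquitin ligases. FBXO8 (ENSDARG00000007477) fell to 0.152 and 0 CPM (4 and 0 counts) in hand2, against 16.8 and 16.3 CPM (401 and 579 counts) in wild type (log2 fold change −7.61 ± 1.198, adjusted p = 0.0357). The gata5 and tbx5 libraries held 6.63 to 19.5 CPM of it, which covers the wild-type levels. Of 12 alternatives with a value, FBXO8 kept an adjusted p under 0.05 in 8. In edgeR it was 0.073 with the 8 libraries of 72 hpf and 0.350 with the 4 compared libraries alone. The log2 fold change of FBXO8 was −6.71 with hand2 replicate 2 left out.

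The gene after fbxo8 is hpgd, which encodes the dehydrogenase that inactivates prostaglandins. HPGD (ENSDARG00000012016) had 0 counts in both hand2 libraries, against 2.39 and 10.7 CPM (57 and 382 counts) in wild type. The gata5 and tbx5 libraries held 0.995 to 7.07 CPM of HPGD. Of the other 8 GFP-positive libraries, 7 had counts of HPGD, so a 0 was not particular to hand2. Its level in hand2 was at least 121-fold lower, taking 3 counts over the hand2 group as the floor, and it did not pass the test (unadjusted p = 0.00364, adjusted p = 0.270). On the other side, cep44, which encodes a centrosome protein, lies beyond hmgb2a. CEP44 had 0 counts in both hand2 libraries, against 0 and 4.30 CPM (0 and 153 counts) in wild type. Its groups thus touched at 0 and only wild-type replicate 2 was high (adjusted p = 0.419). The gata5 and tbx5 libraries held 0 to 4.04 CPM of CEP44, and 7 of the other 8 GFP-positive libraries had counts of it.

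In the GFP-negative cells, which were sorted from embryos of the same labels and had 1 library per condition, HAND2, FBXO8, HPGD and CEP44 all had 0 counts in hand2. The GFP-negative library of wild type at 72 hpf had 362 counts of HAND2, 47 of FBXO8, 154 of HPGD and 29 of CEP44. Over the 5 GFP-negative libraries outside hand2, the lowest counts were 88 for HAND2, 24 for FBXO8, 15 for HPGD and 22 for CEP44. These 4 genes were therefore missing from the GFP-negative hand2 library and present in every other GFP-negative library.

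The other matched neighbours had counts in both hand2 libraries, apart from scpp1. The gene sparcl1, 7 genes away on the side of cep44, had 2.35 and 1.99 CPM in hand2, against 11.3 and 11.2 CPM in wild type (log2 fold change −2.37, unadjusted p = 0.118, adjusted p = 0.596). Its hand2 libraries lay below both wild-type libraries, as in 15.8% of all genes. The gata5 and tbx5 libraries held 1.47 to 3.63 CPM of sparcl1, which covers the hand2 levels and lies below both wild-type libraries. HMGB2, the match of hmgb2a through its older name and the gene between cep44 and hand2, encodes a chromatin protein and had 128 and 143 CPM in hand2, against 218 and 148 CPM in wild type (log2 fold change −0.43, adjusted p = 0.693). GALNT7, which encodes an enzyme of mucin-type glycosylation and lies beyond cep44, had 23.4 and 27.4 CPM in hand2, against 21.4 and 47.8 CPM in wild type. Farther out beyond hpgd, WDR17 (2.35 and 1.77 CPM in hand2, against 1.72 and 1.86 CPM in wild type), asb5b (10.7 and 8.54 CPM in hand2, against 11.0 and 6.83 CPM in wild type) and SPCS3 (19.5 and 25.6 CPM in hand2, against 21.7 and 19.5 CPM in wild type) had groups that overlapped. GLRA3, which encodes a glycine receptor subunit and follows hpgd, had 0.380 and 0.266 CPM in hand2, against 0.0839 and 6.83 CPM in wild type, and had 143 counts in the GFP-negative hand2 library. The gene scpp1, 8 genes away, had 0 counts in both hand2 libraries, against 2.01 and 0 CPM in wild type, and 25 counts in the GFP-negative hand2 library. The genes at 0 counts in the GFP-negative hand2 library were thus hand2, the 2 genes after it and cep44, with HMGB2 present among them. Gene order comes from another assembly than the build of the counts, and whether the order is the same there was not tested.

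**Figure D1:**
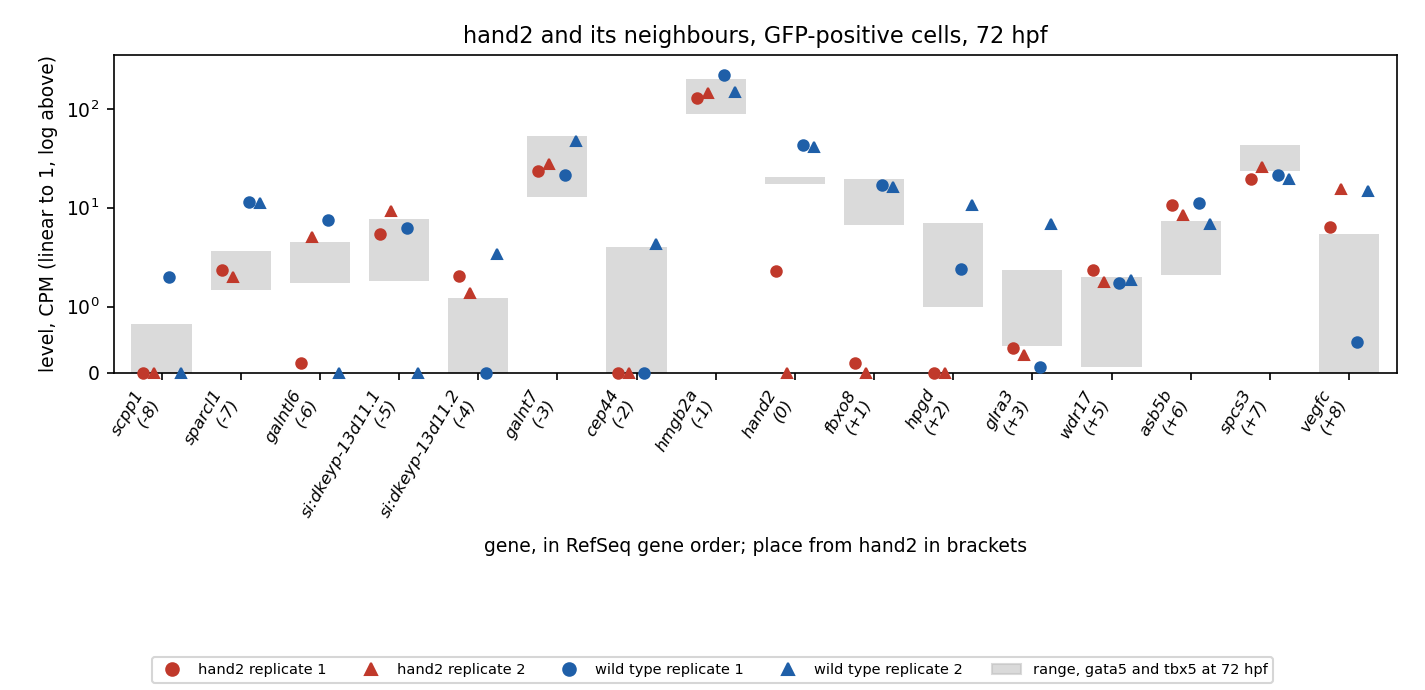
Levels in CPM (linear up to 1, log above) of hand2 and 15 matched neighbours in RefSeq gene order, with each hand2 library in red and each wild-type library in blue, and the range of the gata5 and tbx5 libraries of 72 hpf in grey. FBXO8 stands at 0.152 and 0 CPM in hand2, against 16.8 and 16.3 CPM in wild type, HPGD at 0 in both hand2 libraries, and HMGB2 and GALNT7 are present in all 4.

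Across all genes, 12 of the 23767 tested passed at an adjusted p under 0.05 (0.0505%), with 8 higher (0.0337%) and 4 lower (0.0168%) in hand2. At an unadjusted p under 0.05 there were 2160 genes (9.09%), made up of 1541 higher genes (6.48%) and 619 lower genes (2.60%). Counts of list members at that p are to be read beside these shares. The hand2 libraries lay wholly above the wild-type libraries for 6473 genes (27.2%) and wholly below them for 3750 genes (15.8%). The median log2 fold change over all genes was 0.08. The number of calls depended on the wild-type libraries, being 604 (521 higher and 83 lower) with wild-type replicate 1 left out and 52 (49 higher and 3 lower) with wild-type replicate 2 left out. It was 0 with the 4 compared libraries alone in edgeR, where 2605 genes had an unadjusted p under 0.05, and 669 (476 higher and 193 lower) with the DESeq2 Wald test.

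Replicates differed more in wild type than in hand2 for genes of 1 CPM or more. For the 8504 genes with a mean of 10 to 100 CPM over the 12 libraries, the median absolute difference between replicates on the log2(CPM + 1) scale was 0.294 in hand2 and 0.596 in wild type. For the 1399 genes of 100 CPM or more it was 0.210 in hand2 and 0.409 in wild type. For the 9520 genes of 1 to 10 CPM it was 0.511 in hand2 and 1.17 in wild type. For the 4344 genes under 1 CPM the order was the other way, with 0.437 in hand2 and 0 in wild type. Of these genes 3974 had 0 counts in at least 1 wild-type library, against 2156 in at least 1 hand2 library. The 0 of wild type thus came with missing counts and does not show closer replicates. In the band of 10 to 100 CPM, 612 genes were higher and 386 lower at an unadjusted p under 0.05. Above it, 213 genes were higher and 50 lower. The middle 50% of log2 fold changes ran between −0.35 and 0.51 in the band of 10 to 100 CPM, and between −0.03 and 0.59 above it.

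**Figure D2:**
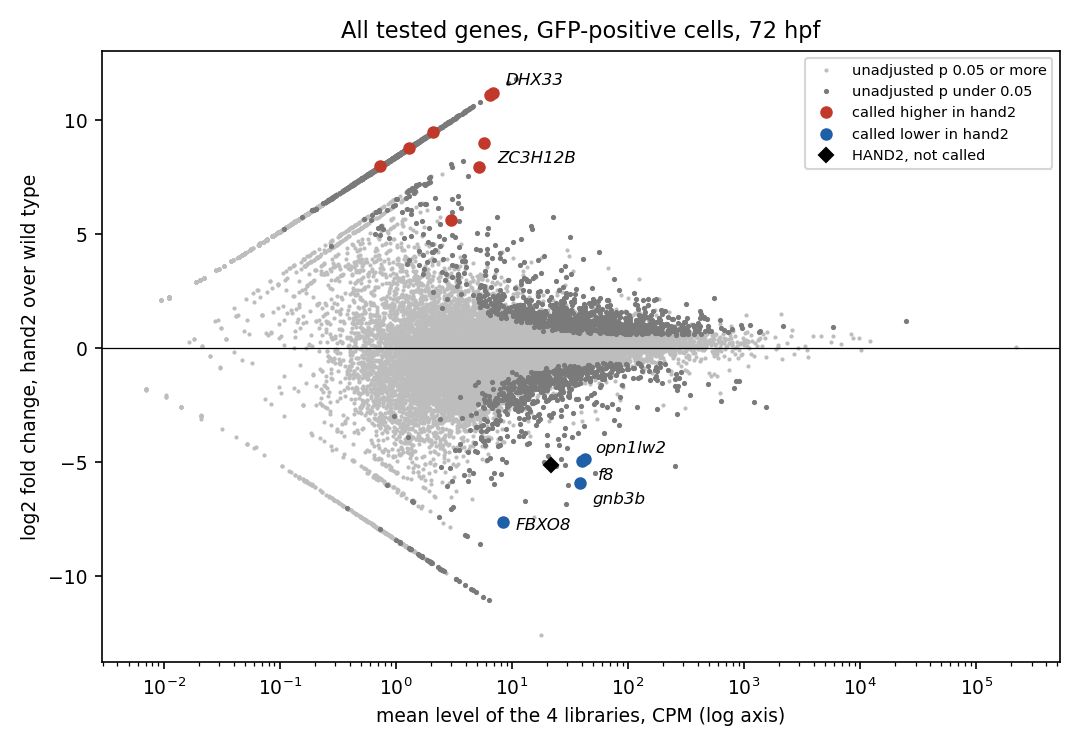
Log2 fold change of hand2 over wild type against the mean level of the 4 libraries in CPM (log axis) for the tested genes with a count in at least 1 of the 4, with the 8 genes called higher in red, the 4 called lower in blue and HAND2 as a black diamond. Genes with no count in either library of a group form the straight edges on the left, where 5 of the 8 higher genes lie.

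Among the 4 called lower genes, opn1lw2 and gnb3b belong to cone photoreceptors. The gene opn1lw2 encodes a red cone opsin, and gnb3b encodes the beta subunit of cone transducin. Levels of gnb3b fell to 1.25 and 1.28 CPM in hand2, against 54.3 and 98.9 CPM in wild type (log2 fold change −5.91 ± 0.66, adjusted p = 0.00508). Levels of opn1lw2 fell to 1.75 and 3.27 CPM in hand2, against 32.7 and 124 CPM in wild type (−4.97 ± 0.70, adjusted p = 0.0232). In the gata5 and tbx5 libraries of 72 hpf, gnb3b lay at 4.35 to 12.3 CPM and opn1lw2 at 15.1 to 18.9 CPM, between the hand2 and the wild-type levels in both cases. Of 13 alternatives, opn1lw2 kept an adjusted p under 0.05 in 8. In edgeR it was 0.072 with at least 1 CPM in 2 of the 4 libraries. It was 0.084 with a mean of at least 10 CPM over the 12 libraries, and 0.350 with the 4 compared libraries alone. The log2 fold change of opn1lw2 was −4.58 with hand2 replicate 1 left out and −3.71 with wild-type replicate 2 left out.

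The fourth gene called lower beside FBXO8 and the cone genes was f8, which encodes coagulation factor VIII. It fell to 2.62 and 3.01 CPM in hand2, against 102 and 64.3 CPM in wild type (−4.88 ± 0.56, adjusted p = 0.00288). The gata5 and tbx5 libraries held 6.26 to 40.6 CPM, again below the wild-type levels and above those of hand2. Both f8 and gnb3b kept an adjusted p under 0.05 in 12 of 13 alternatives, the exception being the fit of the 4 compared libraries alone.

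The genes called higher were marked by their absence from wild type. DHX33, which encodes a DEAH-box RNA helicase, had 13.6 and 13.8 CPM in hand2, against 0 counts in both wild-type libraries, and was at least 271-fold higher with a floor of 3 counts over the wild-type group (adjusted p = 0.00222). ZC3H12B, of a family of zinc-finger ribonucleases, rose to 12.3 and 10.8 CPM in hand2, against 0 and 0.0281 CPM (0 and 1 counts) in wild type (adjusted p = 0.00222). The gata5 and tbx5 libraries held 4.89 to 12.5 CPM of DHX33 and 10.5 to 15.6 CPM of ZC3H12B, above both wild-type libraries. It is the wild-type libraries of 72 hpf that stand apart for these genes.

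The other 6 genes called higher include 3 with a known role. Heme synthesis is represented by uros, the gene of uroporphyrinogen III synthase, with 3.61 and 1.64 CPM in hand2 and 0 counts in both wild-type libraries, at least 53.4-fold higher (adjusted p = 0.0155). The gene hdr, a death receptor of the tumour necrosis factor receptor family in fish, had 2.01 and 0.929 CPM in hand2 and 0 counts in wild type, at least 29.9-fold higher (adjusted p = 0.0326). The gene tbc1d10c, of a family of Rab GTPase-activating proteins, had 3.27 and 5.18 CPM in hand2 and 0 counts in wild type, at least 82.1-fold higher (adjusted p = 0.0394). Each of these 3 was found in the gata5 and tbx5 libraries, at 2.72 to 9.94 CPM for uros, 0.774 to 4.56 CPM for hdr and 0.726 to 4.81 CPM for tbc1d10c.

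The remaining 3 have no annotated function here. ENSDARG00000097202 had 16.4 and 9.69 CPM in hand2 and 0 counts in wild type, and si:dkey-23a13.22 had 4.06 and 7.66 CPM in hand2, against 0.0420 and 0.169 CPM in wild type. ENSDARG00000083759 had 9.42 and 11.2 CPM in hand2, against 0.0839 and 0 CPM in wild type. All 8 genes called higher were present in the 4 gata5 and tbx5 libraries, and 5 of them had no count in either wild-type library. Of the alternatives with a value, DHX33 and ZC3H12B passed in 12 of 13 and ENSDARG00000097202 in 10 of 12. Both uros and si:dkey-23a13.22 passed in 9 of 13. Fewer passes were found for tbc1d10c (8 of 13), ENSDARG00000083759 (7 of 13) and hdr (7 of 12).

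**Figure D3:**
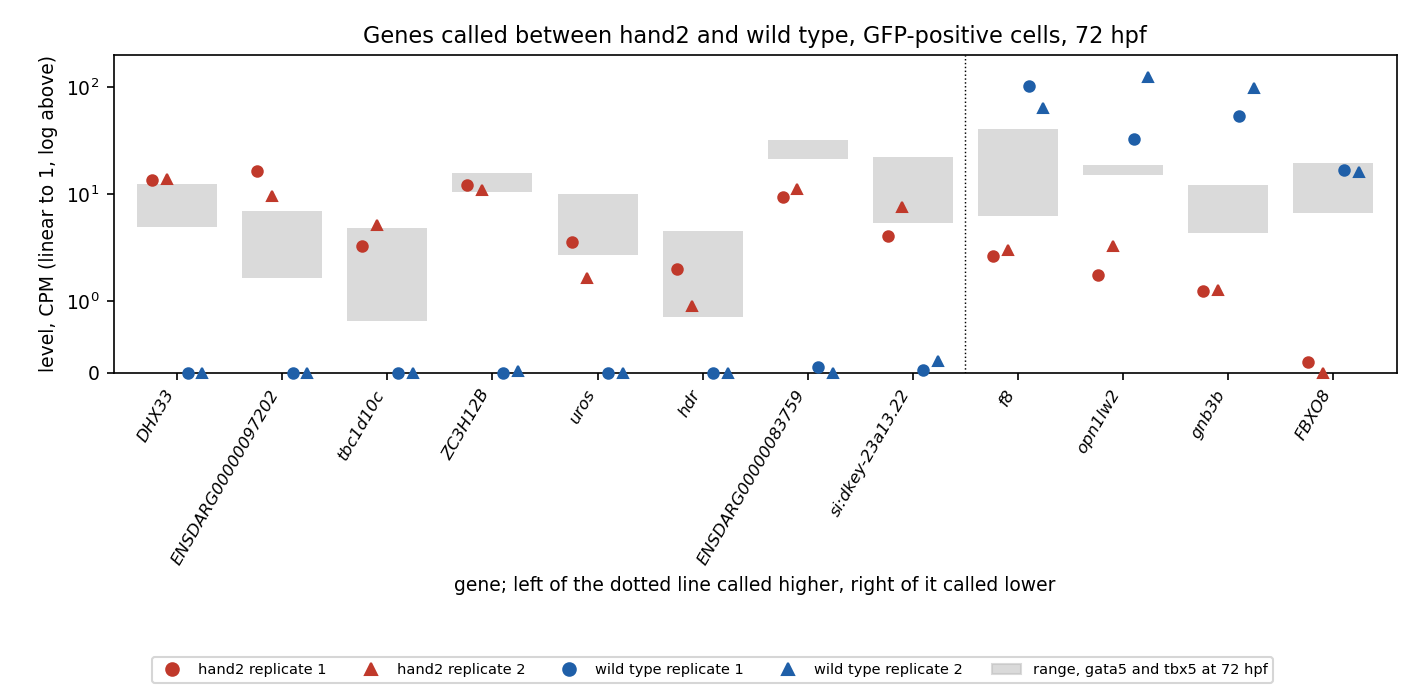
Levels in CPM (linear up to 1, log above) of the 12 called genes in each hand2 library (red) and each wild-type library (blue), with the range of the 4 gata5 and tbx5 libraries of 72 hpf in grey. For the higher genes the grey range lies above both wild-type libraries, and for f8, opn1lw2 and gnb3b it lies between the groups.

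Beyond the 12 calls, the genes with the smallest p, at 10 CPM or more in the higher group and with no overlap, are given as values that did not pass the test. Among those higher in hand2, c5ar1 and cybb belong to phagocytes, as the receptor of complement C5a and as the catalytic subunit of the NADPH oxidase. The level of c5ar1 was 48.3 and 58.5 CPM in hand2, against 5.16 and 3.54 CPM in wild type (log2 fold change 3.62 ± 0.60, adjusted p = 0.0505). The level of cybb was 93.2 and 121 CPM in hand2, against 8.02 and 3.38 CPM in wild type (4.24 ± 0.72, adjusted p = 0.0803). For both genes the hand2 levels also lay above the gata5 and tbx5 libraries, which held 9.61 to 35.2 CPM of c5ar1 and 11.0 to 62.1 CPM of cybb. Those libraries in turn lay above both wild-type libraries.

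RERG, a Ras-related GTPase gene, had 44.6 and 27.3 CPM in hand2, against 1.55 and 2.73 CPM in wild type (4.06 ± 0.66, adjusted p = 0.0505). STAT3, the transcription factor of interleukin-6 family signals, had 228 and 268 CPM in hand2, against 98.8 and 59.4 CPM in wild type (1.65 ± 0.32, adjusted p = 0.100). SLC20A1 (ENSDARG00000010641), a phosphate transporter gene, had 303 and 327 CPM in hand2, against 118 and 130 CPM in wild type (1.34 ± 0.26, adjusted p = 0.0881). The remaining 3 of this kind were the phosphatase gene ptp4a3b (log2 fold change 2.05), the monocarboxylate transporter gene SLC16A6 (ENSDARG00000060246, 2.08) and the glycine cleavage gene GLDC (1.86), with adjusted p of 0.0634 to 0.0881. All of these hand2 levels lay above both wild-type libraries, but for each of these genes the gata5 and tbx5 libraries did so too. They held 8.47 to 18.7 CPM of RERG, 115 to 151 CPM of STAT3 and 165 to 212 CPM of SLC20A1. For GLDC they held 73.0 to 170 CPM, which covers both hand2 levels of 73.7 and 75.6 CPM. SLC16A6 and SLC20A1 each name 2 gene IDs, so reads may have been divided between paralogs.

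Among those lower in hand2 without passing, GNAT2, the alpha subunit of cone transducin, had 1.101 and 2.08 CPM in hand2, against 29.5 and 81.2 CPM in wild type (−5.12 ± 0.88, adjusted p = 0.0634). COL8A2, a short-chain collagen gene, had 7.52 and 1.81 CPM in hand2, against 44.8 and 61.0 CPM in wild type (−3.50 ± 0.61, adjusted p = 0.0634). The transferrin gene tfa had 139 and 170 CPM in hand2, against 486 and 416 CPM in wild type (−1.54 ± 0.28, adjusted p = 0.0803). The ubiquitin ligase gene g2e3 (−2.89), the interleukin-13 decoy receptor gene il13ra2 (−3.56) and the Notch target her4.5 (−2.07) had adjusted p of 0.0634 to 0.107. For GNAT2, g2e3 and il13ra2 the gata5 and tbx5 libraries lay below both wild-type libraries, while for COL8A2 and tfa they spanned the wild-type levels.

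Of 31 tested heart transcription factor genes, 0 passed in edgeR, 5 were higher and 3 lower at an unadjusted p under 0.05, and the median log2 fold change was −0.10, beside 0.08 over all genes. The shares, 16.1% higher and 9.68% lower, stood beside 6.48% and 2.60% of all genes. The zinc-finger factors that work with Hand2 come first. The level of gata4 was 80.3 and 30.4 CPM in hand2, against 13.8 and 13.8 CPM in wild type (2.003 ± 0.58, unadjusted p = 0.00389, adjusted p = 0.275). GATA6 had 73.0 and 23.5 CPM in hand2, against 13.4 and 7.28 CPM in wild type (2.22 ± 0.59, adjusted p = 0.221). GATA5 had 43.1 and 16.02 CPM in hand2, against 19.9 and 33.7 CPM in wild type, and its groups overlapped. For gata4 and GATA6 both hand2 libraries lay above both wild-type libraries, with replicate 1 the higher of the hand2 pair. Of the 31 genes 8 had both hand2 libraries above both wild-type libraries, beside 27.2% of all genes.

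The T-box factor TBX20 had 42.6 and 21.8 CPM in hand2, against 13.7 and 12.2 CPM in wild type (1.31 ± 0.46, adjusted p = 0.401). TBX5, carried by tbx5a, had 14.1 and 8.58 CPM in hand2, against 13.9 and 19.6 CPM in wild type, with overlap. The homeobox factor NKX2-5, an early marker of heart precursors, had 24.0 and 4.73 CPM in hand2, against 3.36 and 0 CPM in wild type (3.11 ± 2.18, adjusted p = 0.646). HEY2, a transcriptional repressor downstream of Notch in the ventricle, had 6.34 and 1.15 CPM in hand2, against 16.4 and 9.48 CPM in wild type (−1.78 ± 1.01, adjusted p = 0.592). In each of these 4 genes hand2 replicate 1 was above hand2 replicate 2.

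MEF2C, a factor of muscle gene expression, is the symbol of 2 gene IDs. The first, ENSDARG00000009418, had 51.7 and 57.1 CPM in hand2, against 28.1 and 25.9 CPM in wild type (1.01 ± 0.29, adjusted p = 0.273). The gata5 and tbx5 libraries held 35.3 to 65.4 CPM of this ID, which covers the hand2 levels and lies above both wild-type libraries. The second, ENSDARG00000029764, had 39.2 and 28.8 CPM in hand2, against 32.02 and 40.6 CPM in wild type. FOXC1 and foxc1b, forkhead factors of mesenchyme and vessels, were the members besides HAND2 that were lower at an unadjusted p under 0.05. The level of foxc1b was 18.8 and 5.75 CPM in hand2, against 22.4 and 61.1 CPM in wild type.

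The summed level of the heart sarcomere genes overlapped between the groups, with hand2 replicate 1 the highest and hand2 replicate 2 the lowest of the 4 libraries. Of 29 tested genes 0 passed, and 4 were higher and 0 lower at an unadjusted p under 0.05, beside 6.48% and 2.60% of all genes. The list had a median log2 fold change of 0.64. The summed level of the list was 10413 and 3849 CPM in hand2, against 5021 and 8853 CPM in wild type. The cardiomyocyte markers went the other way between the wild-type replicates, with sums of 961 and 391 CPM. The skeletal muscle list summed to 4145.5 and 14312.5 CPM in these 2 libraries. The part of skeletal muscle RNA in the sarcomere sum was not tested. With hand2 replicate 1 left out the median was −0.18. MYL7, the regulatory myosin light chain of cardiac muscle, had 408 and 114 CPM in hand2, against 128 and 38 CPM in wild type (1.65 ± 1.12, adjusted p = 0.634). The atrial myosin gene myh6 (ENSDARG00000090637) had 401 and 116 CPM in hand2, against 231 and 90.6 CPM in wild type. MYH7, the match of the ventricular myosin vmhc, had 251 and 112 CPM in hand2, against 259 and 129 CPM in wild type. In all 3 genes replicate 1 of each group was the higher, and the groups overlapped.

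The cardiac troponin T gene TNNT2 (ENSDARG00000020610) had 151 and 46.6 CPM in hand2, against 61.0 and 15.9 CPM in wild type (1.36 ± 0.84, adjusted p = 0.610). The members with the smallest p were tpm4a, a tropomyosin gene, and UNC45B, a chaperone of myosin. Levels of tpm4a were 395 and 186 CPM in hand2, against 113 and 95.7 CPM in wild type (1.48 ± 0.34, adjusted p = 0.170). UNC45B had 61.8 and 25.1 CPM in hand2, against 13.4 and 10.7 CPM in wild type. Both genes had hand2 libraries above both wild-type libraries and above the gata5 and tbx5 range. The upper ends of that range were 91.1 CPM for tpm4a and 14.9 CPM for UNC45B. Of the 29 sarcomere genes 7 had both hand2 libraries above both wild-type libraries, beside 27.2% of all genes.

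The natriuretic peptide genes mark the working heart muscle. The level of nppa was 90.3 and 39.1 CPM in hand2, against 57.1 and 12.3 CPM in wild type, with overlap (0.90 ± 1.13, adjusted p = 0.852). The level of nppb was 26.7 and 18.8 CPM in hand2, against 0 and 4.30 CPM in wild type (3.39 ± 1.98, adjusted p = 0.594). BMP10, a ligand made by trabecular heart muscle, had 4.82 and 2.88 CPM in hand2 and 0 counts in both wild-type libraries, and did not pass (adjusted p = 0.186). It was at least 77.7-fold higher by counting error alone, and the gata5 and tbx5 libraries held 0 to 2.25 CPM. Among 22 tested genes of calcium cycling and ion channels 0 passed, and 1 was higher and 1 lower at an unadjusted p under 0.05. Each share was 4.55%, beside 6.48% higher and 2.60% lower over all genes.

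**Figure D4:**
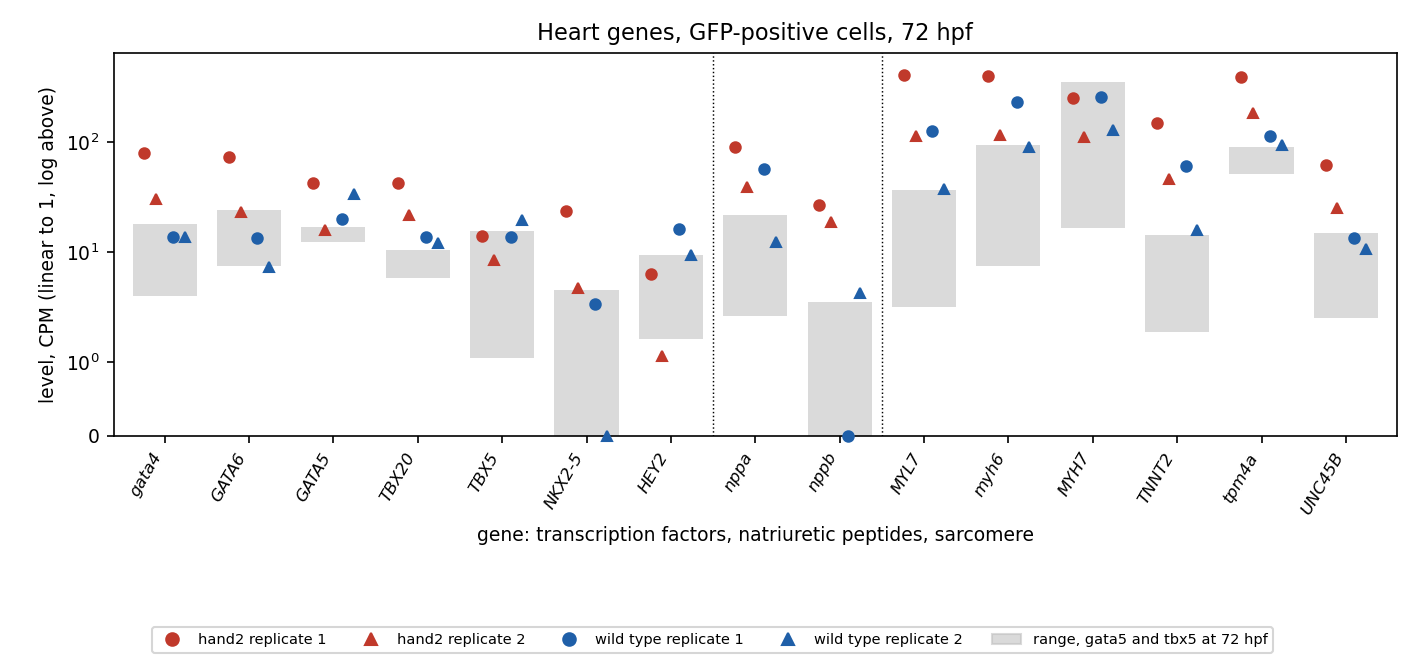
Levels in CPM (linear up to 1, log above) of heart transcription factors, natriuretic peptides and sarcomere genes in each hand2 library (red) and each wild-type library (blue), with the range of the 4 gata5 and tbx5 libraries of 72 hpf in grey. Hand2 replicate 1 lies above hand2 replicate 2 in every gene drawn. In gata4, GATA6, TBX20, NKX2-5, nppb, tpm4a and UNC45B both hand2 libraries lie above both wild-type libraries. Such genes were 8 of 31 tested heart transcription factor genes and 7 of 29 sarcomere genes, beside 27.2% of all genes.

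Fibronectin levels overlapped between the groups. The symbol FN1 stands for 2 gene IDs, which could not be assigned to fn1a and fn1b. ENSDARG00000006526 had 275 and 157 CPM in hand2, against 152 and 205 CPM in wild type (0.28 ± 0.39, adjusted p = 0.880). ENSDARG00000019815 had 160 and 83.3 CPM in hand2, against 93.6 and 139 CPM in wild type (0.07 ± 0.37, adjusted p = 0.990). Of 28 tested genes of fibronectin, integrins and basement membrane 0 passed, and 0 were higher and 1 lower (3.57%) at an unadjusted p under 0.05. Over all genes 6.48% were higher and 2.60% lower, so the lower share was close to that of all genes. The 1 lower gene was NID1 (ENSDARG00000103129), a linker of basement membranes, with 139 and 97.7 CPM in hand2, against 204 and 268 CPM in wild type (−0.997 ± 0.30, adjusted p = 0.290). The gata5 and tbx5 libraries held 106 to 125 CPM of NID1, between the hand2 levels and below both wild-type libraries.

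Fins and pharyngeal arches are other sites of Hand2 function, and their mesenchyme list had 26 tested genes, of which 0 passed and 0 had an unadjusted p under 0.05. The median was −0.06, the summed level 181 and 111 CPM in hand2, against 143 and 188 CPM in wild type, and 7 members had no count in either wild-type library. One of these 7 was ednrab, an endothelin receptor gene of the arches, with 0.494 and 0.974 CPM in hand2. It was at least 14.2-fold higher than in wild type by counting error alone, and the gata5 and tbx5 libraries held 0 to 0.733 CPM. Among 14 genes of neural crest and sympathetic neurons 0 passed. Beside 2.60% of all genes, 2 of these 14 (14.3%) were lower at an unadjusted p under 0.05. They were RET, a receptor of neurotrophic ligands, with 3.91 and 3.85 CPM in hand2, against 17.2 and 13.1 CPM in wild type, and crestin, a neural crest transcript of zebrafish, with 7.33 and 5.89 CPM in hand2, against 45.4 and 20.7 CPM in wild type.

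The list of lens and retina genes had the lowest median, −3.49 over 24 tested members. None passed in edgeR, and 0 were higher and 9 lower at an unadjusted p under 0.05, beside 6.48% and 2.60% of all genes. Their summed level was 37.4 and 43.0 CPM in hand2, against 309 and 625 CPM in wild type and 16.6 to 219 CPM in the other 8 GFP-positive libraries. With wild-type replicate 2 left out the median was −2.36. The 9 include the cone genes GNAT2, GRK7, PDE6C, opn1sw2 and ARR3 with 2 gene IDs, and 2 crystallin genes. PDE6C, the cone phosphodiesterase, had 2.81 and 0.664 CPM in hand2, against 39.3 and 63.3 CPM in wild type (−4.87 ± 1.59, unadjusted p = 0.013). In this sum hand2 lay within the range of the other 8 GFP-positive libraries, which include wild type of earlier stages, while wild type at 72 hpf lay above it. At 72 hpf the gata5 and tbx5 libraries held 2.09 to 16.9 CPM of GNAT2 and 6.20 to 16.3 CPM of ARR3 (ENSDARG00000098475). For these members, those with the smallest p, the range lay above both hand2 libraries and below both wild-type libraries.

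Matrix and skin lists had medians below 0, with wild-type replicate 2 far above wild-type replicate 1. Over all genes, 2.60% were lower at an unadjusted p under 0.05. Of 18 tested genes of cartilage and notochord 0 passed and 10 were lower at an unadjusted p under 0.05, with a median of −2.34 and sums of 1327 and 675 CPM in hand2, against 2375 and 8379 CPM in wild type. MATN1, a cartilage matrix gene, had 12.2 and 15.4 CPM in hand2, against 247 and 742 CPM in wild type (−5.17 ± 1.72, unadjusted p = 0.024). The proteoglycan gene acana had 8.32 and 5.89 CPM in hand2, against 64.1 and 89.9 CPM in wild type (−3.44 ± 0.94, adjusted p = 0.290). Without wild-type replicate 2 the median of the list was −0.99.

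Of 55 tested collagen genes 0 passed and 17 were lower at an unadjusted p under 0.05, beside 2.60% of all genes. Their median was −1.32, or −0.52 without wild-type replicate 2. Of 19 epidermis genes 0 passed and 8 were lower, with a median of −1.99, or −0.20 without that library. The keratin gene krt5 had 60.1 and 64.2 CPM in hand2, against 212 and 715 CPM in wild type (−2.90 ± 0.81, adjusted p = 0.325). The gata5 and tbx5 libraries held 55.7 to 571 CPM of krt5, which covers both hand2 levels and wild-type replicate 1. The 31 skeletal muscle genes had 0 calls and a median of −0.86, which was 0.18 without wild-type replicate 2. The fast myosin gene myhz2 had 402 and 349 CPM in hand2, against 864 and 1673 CPM in wild type. The gata5 and tbx5 libraries held 286 to 829 CPM of myhz2, which covers the hand2 levels and lies below both wild-type libraries.

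Epicardium and fibroblast genes, which in embryos include collagen I and periostin, had 0 calls. At an unadjusted p under 0.05, 8 of 18 were lower, beside 2.60% of all genes. Their median of −1.05 lay between −1.63 and −0.77 when any of the 4 libraries was left out. POSTN (ENSDARG00000104267), a matrix protein gene, had 153 and 89.0 CPM in hand2, against 313 and 454 CPM in wild type (−1.66 ± 0.35, adjusted p = 0.114). The gata5 and tbx5 libraries held 169 to 243 CPM of POSTN, between the groups. TBX18, a T-box factor of the epicardium, had 15.4 and 4.96 CPM in hand2, against 27.3 and 26.4 CPM in wild type (−1.40 ± 0.58, adjusted p = 0.499). TCF21, another epicardial marker, had 9.19 and 2.39 CPM in hand2, against 4.07 and 3.71 CPM in wild type, with overlap.

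Neuron genes had 0 calls and 5 lower of 24 at an unadjusted p under 0.05, beside 2.60% of all genes, with a median of −1.15. Their sums were 552 and 751 CPM in hand2, against 1189 and 1150 CPM in wild type, and the groups did not overlap. The tubulin-binding gene STMN1 (ENSDARG00000004169) had 33.3 and 23.7 CPM in hand2, against 79.6 and 96.8 CPM in wild type (−1.63 ± 0.42, adjusted p = 0.206). The gata5 and tbx5 libraries held 19.6 to 63.8 CPM of STMN1, which covers the hand2 levels and lies below both wild-type libraries. Red cell genes had 0 calls, with 2 higher and 5 lower of 15 at an unadjusted p under 0.05, beside 6.48% and 2.60% of all genes. Their log2 fold changes were split, with 7 above 0 and 8 below. The median was −0.33, or 0.20 without wild-type replicate 2. The embryonic globin gene hbae3 had 148 and 109 CPM in hand2, against 407 and 417 CPM in wild type (−1.68 ± 0.37, adjusted p = 0.130). The gata5 and tbx5 libraries held 122 to 810 CPM of hbae3, which covers both wild-type levels and hand2 replicate 1. Another embryonic globin gene, hbbe3, went the other way at a low level. It had 5.47 and 1.73 CPM in hand2 and 0 CPM in both wild-type libraries (adjusted p = 0.365 in edgeR).

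Vessel and valve genes gave mixed values. Over all genes, 6.48% were higher and 2.60% lower at an unadjusted p under 0.05. Of 24 genes of endothelium and endocardium 0 passed, 3 were higher and 4 lower at an unadjusted p under 0.05, and the median of −0.76 was 0.03 without wild-type replicate 2. EGFL7, a secreted factor of vessels, had 3.87 and 2.12 CPM in hand2, against 0.336 and 0 CPM in wild type (4.28 ± 0.95, adjusted p = 0.159). The endothelial lectin gene clec14a had 1.48 and 0.133 CPM in hand2, against 7.93 and 12.3 CPM in wild type (−3.62 ± 0.92, adjusted p = 0.206). In the gata5 and tbx5 libraries EGFL7 lay at 2.20 to 6.32 CPM, above both wild-type libraries. There clec14a lay at 0.407 to 2.65 CPM, below both wild-type libraries. Of 19 genes of the atrioventricular canal 0 passed and 3 were lower, with a median of −0.64. The flow-responsive factor klf2a had 18.8 and 15.4 CPM in hand2, against 31.0 and 67.7 CPM in wild type (−1.53 ± 0.53, adjusted p = 0.390). The gata5 and tbx5 libraries held 8.18 to 22.3 CPM of klf2a, which covers the hand2 levels and lies below both wild-type libraries.

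Notch genes had 0 calls, with 1 higher and 5 lower of 23 at an unadjusted p under 0.05, beside 6.48% and 2.60% of all genes. NOTCH1 (ENSDARG00000052094), a receptor, had 44.3 and 33.4 CPM in hand2, against 88.2 and 89.0 CPM in wild type (−1.19 ± 0.33, adjusted p = 0.252). The ligand gene dlc had 18.6 and 25 CPM in hand2, against 43.1 and 67.2 CPM in wild type (−1.34 ± 0.37, adjusted p = 0.242). The gata5 and tbx5 libraries held 49.4 to 80.3 CPM of NOTCH1 and 33.7 to 40.6 CPM of dlc, between the groups in both cases. The receptor gene notch2 was the higher one, at 242 and 248 CPM in hand2, against 145 and 133 CPM in wild type (0.82 ± 0.32, unadjusted p = 0.021). The median of −1.02 was −0.02 without wild-type replicate 2.

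Other signals also gave no calls. Of 39 BMP and TGF-beta genes 3 were higher (7.69%) and 1 lower (2.56%) at an unadjusted p under 0.05. These shares were close to the 6.48% and 2.60% of all genes. Among the higher ones was SMAD1, with 97.7 and 93.9 CPM in hand2, against 56.1 and 44.5 CPM in wild type. Of 39 FGF and retinoic acid genes 1 was higher and 7 lower. The receptor gene fgfr4 had 59.9 and 26.0 CPM in hand2, against 84.8 and 104 CPM in wild type (−1.14 ± 0.37, adjusted p = 0.342). The gata5 and tbx5 libraries held 58.0 to 80.6 CPM of fgfr4, which covers hand2 replicate 1 and lies below both wild-type libraries.

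Leukocyte genes had the highest median, 1.58 over 20 tested members. None passed in edgeR, and 6 were higher and 0 lower at an unadjusted p under 0.05, beside 6.48% and 2.60% of all genes. In 16 members both hand2 libraries lay above both wild-type libraries, beside 27.2% of all genes. The sums were 3384 and 4590 CPM in hand2, against 2464 and 1524 CPM in wild type and 949 to 3802 CPM in the other 8 GFP-positive libraries. Of these sums csf1ra, also one of the xanthophore markers, held 1422 and 2034 CPM in hand2, against 1632 and 938 CPM in wild type. The leukocyte markers, which leave csf1ra out, summed to 1372 and 1851 CPM in hand2, against 604 and 422 CPM in wild type. In the other 8 libraries they summed to 193 to 1031 CPM. The median lay between 1.32 and 1.89 when any of the 4 libraries was left out. CORO1A, an actin-binding protein gene of blood cells, had 242 and 343 CPM in hand2, against 105 and 75.7 CPM in wild type (1.69 ± 0.34, adjusted p = 0.107). The gata5 and tbx5 libraries held 143 to 258 CPM of CORO1A, which covers hand2 replicate 1 and lies above both wild-type libraries. MPEG1 (ENSDARG00000055290), a pore-forming protein gene of macrophages, had 431 and 567 CPM in hand2, against 145 and 112 CPM in wild type (1.96 ± 0.81, unadjusted p = 0.041). The colony-stimulating factor receptor gene csf1rb had 109 and 112 CPM in hand2, against 35.3 and 15.2 CPM in wild type (2.13 ± 0.51, adjusted p = 0.181). The hand2 libraries were the higher ones in these 3 gene IDs. MPEG1 is the symbol of 3 gene IDs, of which ENSDARG00000043093 had 17.8 and 30.2 CPM in hand2, against 16.8 and 16.3 CPM in wild type (0.53 ± 0.80, unadjusted p = 0.513), and ENSDARG00000078569 had 0.114 and 1.28 CPM in hand2, against 0.336 and 0 CPM in wild type. The part of leukocyte RNA in the values of c5ar1 and cybb was not tested.

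Pigment cell lists had 0 calls. The 24 xanthophore genes had a median of 0.43 and summed to 25325 and 30210 CPM in hand2, against 25045 and 14030 CPM in wild type, where replicate 2 was low. BCO1, a carotenoid-cleaving enzyme gene, had 318 and 376 CPM in hand2, against 186 and 101 CPM in wild type (1.27 ± 0.45, adjusted p = 0.411). The 11 iridophore genes had 4 higher at an unadjusted p under 0.05, beside 6.48% of all genes. Their median was 1.203, or 0.33 without hand2 replicate 1. The purine enzyme gene pnp4a had 45.2 and 30.3 CPM in hand2, against 14.8 and 19.3 CPM in wild type (1.15 ± 0.47, adjusted p = 0.481). The 10 melanophore genes had 0 with an unadjusted p under 0.05.

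Ribosomal protein genes were a large group with values on the higher side. Of 86 tested 0 passed in edgeR, 24 were higher and 0 lower at an unadjusted p under 0.05, and 55 had both hand2 libraries above both wild-type libraries. Of all genes, 6.48% were higher at that p, and 27.2% had both hand2 libraries above both wild-type libraries. The median was 0.49, and it was 0.92 without wild-type replicate 1 and 0.22 without wild-type replicate 2. The sums were 43261 and 42657 CPM in hand2, against 36779 and 29438 CPM in wild type. In the other 8 GFP-positive libraries they ran between 28851 and 60964 CPM with a median of 39720 CPM, a range that covers both groups. RPS12 had 209 and 156 CPM in hand2, against 73.1 and 58.7 CPM in wild type (1.47 ± 0.33, adjusted p = 0.143). The gata5 and tbx5 libraries held 110 to 165 CPM of RPS12, which covers hand2 replicate 2 and lies above both wild-type libraries. In 26 ribosome biogenesis genes 4 were higher and 0 lower at an unadjusted p under 0.05, with a median of 0.53.

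Of the energy metabolism lists, nuclear oxidative phosphorylation and fatty acid oxidation had medians near 0. The 93 nuclear genes of oxidative phosphorylation had a median of 0.06 and sums of 4702 and 4540 CPM in hand2, against 4748 and 4402 CPM in wild type. The 32 genes of fatty acid oxidation had a median of −0.03 and sums of 1756 and 1659 CPM in hand2, against 1722 and 1638 CPM in wild type. Of 33 glycolysis genes 5 were higher and 1 lower at an unadjusted p under 0.05, beside 6.48% and 2.60% of all genes. The median of this list was 0.53, with sums of 3132 and 3056 CPM in hand2, against 1993 and 2614 CPM in wild type. The pyruvate kinase symbol PKM (ENSDARG00000099730) had 290 and 393 CPM in hand2, against 139 and 145 CPM in wild type (1.26 ± 0.33, adjusted p = 0.208). Of the 13 mitochondrially encoded genes 4 were higher and 0 lower at an unadjusted p under 0.05, beside 6.48% and 2.60% of all genes, and 8 had both hand2 libraries above both wild-type libraries, beside 27.2% of all genes. Their median was 0.34, and their sums, 25838 and 22689 CPM in hand2 against 22528 and 23213 CPM in wild type, overlapped. No member of these 4 lists passed in edgeR, and the summed glycolysis levels of the groups did not overlap.

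Growth and stress lists had 0 calls in edgeR as well. Over all genes, 6.48% were higher and 2.60% lower at an unadjusted p under 0.05. Of 50 cell cycle genes 2 were higher and 9 lower at an unadjusted p under 0.05, with a median of −0.35. CCNB1, the mitotic cyclin B1, had 6.08 and 10.7 CPM in hand2, against 30.9 and 42.3 CPM in wild type (−2.13 ± 0.47, adjusted p = 0.142). The gata5 and tbx5 libraries held 9.98 to 24.0 CPM of CCNB1, which covers hand2 replicate 2 and lies below both wild-type libraries. CDT1, a licensing factor of DNA replication, had 12.4 and 13.8 CPM in hand2, against 4.41 and 3.97 CPM in wild type (1.64 ± 0.46, adjusted p = 0.252). Of 26 genes of the p53 and apoptosis list 3 were higher and 0 lower, among them baxb, a cell death gene, with 22.0 and 15.8 CPM in hand2, against 3.27 and 6.92 CPM in wild type. The gata5 and tbx5 libraries held 8.45 to 31.6 CPM of baxb, which covers the hand2 levels and lies above both wild-type libraries. Immediate early genes had 1 higher and 2 lower of 26, with sums of 5216 and 4749 CPM in hand2, against 3172 and 3488 CPM in wild type. Of 27 genes of the heat shock and unfolded protein response 1 was higher and 2 lower, with a median of 0.02. SERPINH1 (ENSDARG00000019949), a chaperone of collagen, had 46.98 and 16.6 CPM in hand2, against 106 and 175 CPM in wild type (−2.14 ± 0.79, adjusted p = 0.472). The gata5 and tbx5 libraries held 14.8 to 73.8 CPM of SERPINH1, which covers the hand2 levels and lies below both wild-type libraries. HSPB1, a small heat shock protein gene, had 61.7 and 28.5 CPM in hand2, against 20.02 and 9.51 CPM in wild type (1.61 ± 0.47, adjusted p = 0.272).

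**Figure D5:**
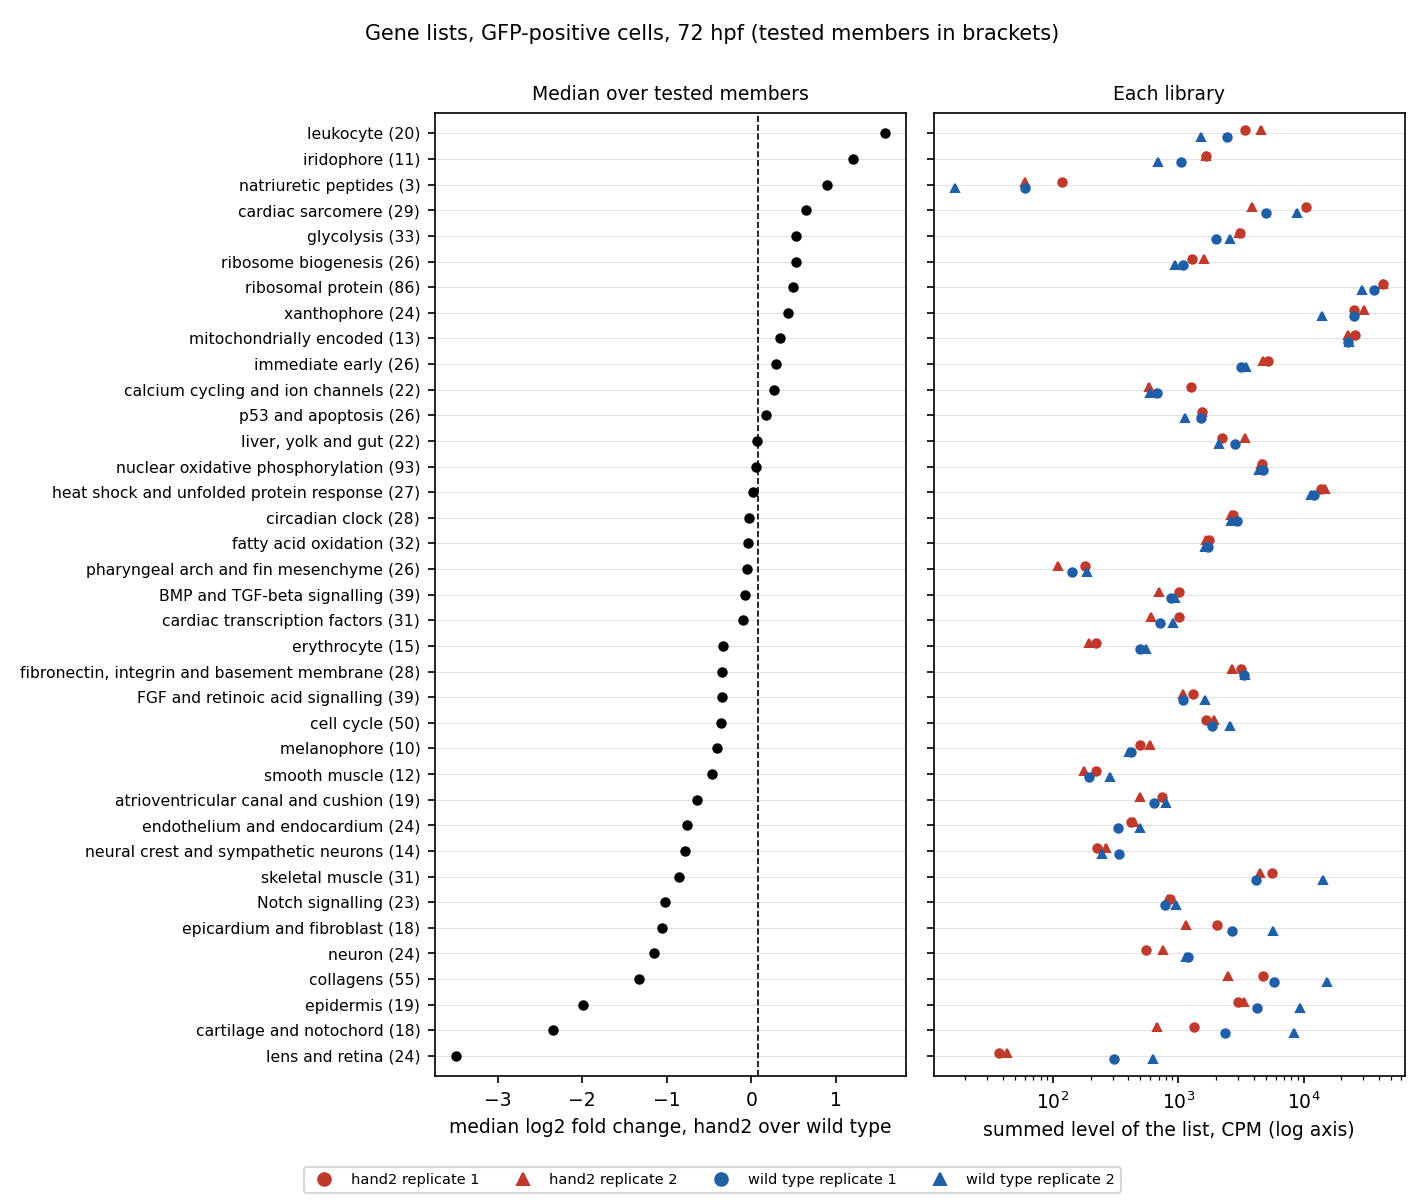
Left, median log2 fold change of hand2 over wild type for 37 gene lists, with the number of tested members in brackets and the median of all genes, 0.08, as a dashed line. Right, the summed level of each list in CPM (log axis) in each hand2 library (red) and each wild-type library (blue). Lens and retina genes stand lowest at −3.49 and leukocyte genes highest at 1.58, and wild-type replicate 2 is the high library for skeletal muscle, collagens, epidermis and cartilage.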

How the data were processed

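Per the labels, RNA of FACS-sorted cells was isolated on Trizol-based columns with DNase and sequenced after SMARTer low input library preparation. The authors deposited raw counts per Ensembl gene ID and regularized-log (log2) values of the same libraries. The submitters' processing notes list Trimmomatic 0.36, STAR 2.5, SAMtools 1.4, DESeq2 without a version and build GRCz10. Which counter, annotation and strand option were used is not given in the sources used here, so reads of antisense genes and near-identical paralogs may be misassigned.

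Counts of the 12 GFP-positive libraries, as 6 groups, were fitted with edgeR 4.0.16 in R 4.3.3 (TMM scaling, filterByExpr with minimum count 10 and minimum total 15, robust quasi-likelihood F test, two-sided, 6 residual degrees of freedom). P-values were adjusted by Benjamini-Hochberg over 23767 genes, with 0.05 as the threshold for a call. The common biological coefficient of variation was 0.890. Alternatives used limma 3.58.1 and DESeq2 1.42.0. The procedure was also run on counts simulated from the model that edgeR fits, with the same spread in every group. That run cannot test the effect of the larger spread and the zeros of the wild-type libraries. Counting intervals (95%) and the floor of 3 counts over a group cover counting error only.

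The 37 gene lists, the comparison and the naming rules were chosen with earlier results of these data known. Of 28298 gene IDs 24555 have a symbol, and 3693 share it with another ID. Named genes are HAND2, a set of heart genes, called genes with 10 CPM or more, no overlap and a proper name (filled up to 10 per direction by p), and up to 2 uncalled members per list. The other called genes, the genes next to hand2 and some further list members were chosen after their values were seen.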

Additional observations from a re-analysis of the deposited data

How the results depend on the processing

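The comparison called 12 genes in edgeR, and 12 with DESeq2 size factors. The count was 507 (346 higher, 161 lower) with no filter on low counts, 5 with at least 1 CPM in 2 of the 4 libraries, and 4 with a mean of at least 10 CPM over the 12 libraries, an alternative chosen after seeing the data. It was 0 with the 4 compared libraries alone, where 2605 genes had an unadjusted p under 0.05, and 9 with the 8 libraries of 72 hpf. It was 669 (476 higher, 193 lower) with the DESeq2 Wald test, where 2765 genes had no adjusted p, and 59 (32 higher, 27 lower) with limma on the deposited regularized-log values. Leaving out 1 library in turn gave 14 to 604 calls, the highest without wild-type replicate 1. The cause of these differences was not tested. Of the 12 called genes, 12 were shared by the DESeq2 Wald test and 11 by limma. Only 6 of them were among the 9 calls from the 8 libraries of 72 hpf. The filter of 1 CPM shared 5, the filter of 10 CPM shared 4, and the 4 compared libraries alone shared 0.

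Samples of the same number did not deviate together (r = −0.028 between the replicate differences of hand2 and wild type), so the numbers are not taken as pairs. With the replicate number as a block 16 genes were called (10 higher, 6 lower), 12 of them shared.

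HAND2 passed in 5 of 13 alternatives, with an adjusted p of 2e-19 without a filter, 2e-06 with the DESeq2 Wald test and 0.018 with limma.

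Directions turned for some uncalled heart genes near 0. With 1 library left out in turn, log2 fold changes ran between −0.74 and 0.69 for GATA5, between −0.34 and 0.11 for MEF2C (ENSDARG00000029764), between −0.48 and 1.52 for myh6, and between −0.80 and 0.49 for MYH7. They ran between −0.68 and 6.58 for TNNT2 (ENSDARG00000100694), between −0.19 and 0.63 for FN1 (ENSDARG00000006526), and between −0.48 and 0.47 for FN1 (ENSDARG00000019815). With limma they were −0.042 for GATA5 and −0.048 for FN1 (ENSDARG00000019815), and this FN1 had −0.0347 with DESeq2 size factors, −0.0348 with the DESeq2 Wald test and −0.0301 with the filter of 10 CPM.

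With 2 libraries a group, none of the 4344 genes with a mean under 1 CPM over the 12 libraries was called in edgeR, against 79 of them at an unadjusted p under 0.05.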

Other observations

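Some of the 12 most abundant transcripts outside the gene lists had both hand2 libraries apart from both wild-type libraries without passing the edgeR test. They were chosen after their values were seen. The cytoplasmic actin gene actb2 had 6294 and 9020 CPM in hand2, against 4560 and 3480 CPM in wild type (log2 fold change 0.93 ± 0.29, adjusted p = 0.324). The unnamed ENSDARG00000082753 had 30094 and 38909 CPM in hand2, against 21917 and 8373 CPM in wild type (1.19 ± 0.43, adjusted p = 0.419). The gene ID with the most counts, ENSDARG00000080337, which has no symbol, had 223623 and 227522 CPM in hand2, against 236420 and 197324 CPM in wild type, and its groups overlapped (0.06 ± 0.29).

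Of the mitochondrially encoded genes, MT-ND3, a subunit of complex I, had 61.5 and 68.8 CPM in hand2, against 26.1 and 18.3 CPM in wild type (1.56 ± 0.39, adjusted p = 0.198). The gata5 and tbx5 libraries held 28.6 to 49.8 CPM of MT-ND3, between the groups. MT-CO1, a subunit of cytochrome oxidase, had 10088 and 9712 CPM in hand2, against 9893 and 11001 CPM in wild type. In the list of liver, yolk and gut genes, the apolipoprotein B gene apobb.1 stood at 675 and 1147 CPM in hand2, against 238 and 156 CPM in wild type (2.21 ± 0.81, adjusted p = 0.472). The gata5 and tbx5 libraries held 101 to 1806 CPM of apobb.1, which covers the levels of both groups.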
